A study of Mus musculus with 6 samples.

Results

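Myeloid C-type lectin receptors are membrane proteins by which neutrophils, monocytes, macrophages and dendritic cells recognise sugars, glycolipids and material from dead cells. The 10 genes considered are Clec4a1, Clec4a2, Clec4a3, Clec4d, Clec4e, Clec4n, Clec5a, Clec7a, Clec10a and Clec12a. They were taken as a list of named genes, chosen with earlier results of these data known. A probe was assigned to one of them when it was not a control and its accession was a RefSeq transcript of that gene. This gave 9 probes for 9 of the 10 genes among 55681 probes on the array. No accession listed for Clec7a, the beta-glucan receptor, matched a probe, and Clec7a is not analysed here. Of the 9 genes, 7 were among the 23264 genes tested.

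Total RNA came from bone marrow cells sorted from C57BL/6 mice, which the labels call mesenchymal stem cells of the marrow, without naming the markers of the sort. The young group held 3 samples from mice aged 3 months and the old group 3 samples from mice aged 24 months. No genetic change or treatment is recorded for either group. Each sample was hybridised to 1 Agilent 1-colour array. Whether the samples of one age are separate animals or pools is not given. The limma p-values set the difference between the ages against the spread among these samples only, estimated with information shared between genes. Some of that spread may be technical.

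The receptors fall into families by how they signal. Clec4d, Clec4e and Clec4n have no signalling motif of their own and use the Fc receptor gamma chain, encoded by Fcer1g, while Clec5a uses the adaptor DAP12, encoded by Tyrobp. Both adaptors recruit the kinase Syk, which acts through Card9, Bcl10 and Malt1 on NF-kB and the genes of inflammatory cytokines. Clec4a2 and Clec12a carry inhibitory motifs that recruit phosphatases such as those encoded by Ptpn6 and Ptpn11, and Clec10a binds galactose-type sugars on macrophages and dendritic cells. Of the 10 genes, 9 lie on chromosome 6. In the RefSeq gene order Clec4n, Clec4d and Clec4e are consecutive protein-coding genes, as are Clec4a1 and Clec4a3, and Clec4a2 lies between Clec4b1 and Clec4b2. Clec10a lies on chromosome 11 beside its close relative Mgl2.

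Sequences upstream of the start site were taken from a RefSeq promoter table of assembly GRCm38.p6, which matched 8 of the 10 genes. The 250 bases before the start are shown for the adjacent genes Clec4d and Clec4e, which both fell in old samples, and for Clec4a2 of the same gene cluster, which did not pass the test. Letters in capitals mark matches to GAGGAA, the core bound by the myeloid factor PU.1, or to TTGCNNAA, a pattern of the C/EBP factors, on either strand.
Clec4d, chr6.0:123261857.0-123262106.0, plus strand: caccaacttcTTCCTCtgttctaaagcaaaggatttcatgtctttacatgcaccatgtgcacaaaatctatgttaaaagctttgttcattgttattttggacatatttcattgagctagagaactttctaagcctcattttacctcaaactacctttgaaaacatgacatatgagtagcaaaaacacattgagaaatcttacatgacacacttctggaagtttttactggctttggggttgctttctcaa
Clec4e, chr6.0:123289872.0-123290121.0, minus strand: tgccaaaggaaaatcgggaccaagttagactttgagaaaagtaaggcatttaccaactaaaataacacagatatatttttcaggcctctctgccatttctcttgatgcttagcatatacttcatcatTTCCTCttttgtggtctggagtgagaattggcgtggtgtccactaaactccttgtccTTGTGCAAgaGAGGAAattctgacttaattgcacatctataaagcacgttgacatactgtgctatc
Clec4a2, chr6.0:123122440.0-123122689.0, plus strand: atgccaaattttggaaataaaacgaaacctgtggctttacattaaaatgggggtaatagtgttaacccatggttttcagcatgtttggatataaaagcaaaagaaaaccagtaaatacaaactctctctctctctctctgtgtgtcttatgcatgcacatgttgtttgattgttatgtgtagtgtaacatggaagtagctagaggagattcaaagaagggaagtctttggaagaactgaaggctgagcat

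GAGGAA or its reverse complement TTCCTC was present in the windows of 6 of the 8 genes, against 23.3% of the 32851 windows of this length in the table. TTGCNNAA or its reverse was present in 2 of the 8 windows, those of Clec4e and Clec12a, against 9.56% of all windows. TGANTCA, a palindromic pattern of the AP-1 factors, was present in 1 of the 8 windows, that of Clec12a, against 6.75% of all windows. The Clec4e window held GAGGAA matches on both strands, and its C/EBP-type match began 66 bases before the start. The windows of Clec4a2 and Clec4a3 held none of the 3 patterns, which says only that these letters are not in those windows.

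Leukocyte RNA was present in all samples. All 12 of 12 markers shared by leukocytes were well above background on all 6 arrays, meaning that the scanner software called the spot brighter than its surroundings. This held for 5 of 17 stromal and osteoblast markers, and no array had Pdgfra, Pdgfrb, Prrx1, Foxc1 or Twist1 well above background. Stromal and osteoblast RNA was measured all the same, since 10 of the 17 were tested. Their list had a summed level of 4.04 to 5.30 in young and 4.68 to 5.08 in old samples (log2 relative to the 75th percentile). Old arrays were dimmer, with a 75th percentile of processed signal of 206 to 285 against 277 to 349 on young arrays. The share of probes well above background was 50.9% to 53.4% on old and 55.2% to 60.0% on young arrays. One slide and one scan held all arrays, but each age had its own slide row, and effects of row and age cannot be told apart.

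Old were compared with young samples to see which of these receptors differed with age in the sorted cells. Of the 7 tested genes, 3 fell in old samples (Clec4d, Clec4e and Clec10a), 0 rose and 4 did not pass an adjusted p of 0.05 in limma. Among all genes tested, 4.04% fell and 3.98% rose, 8.01% in either direction. Since the receptors were chosen with earlier results of these data known, the comparisons with all genes here describe the list and do not test it. At an unadjusted p under 0.05 the limma fit gave 5 of the 7, all lower in old samples. The same limit was met by 6469 of all 23264 genes tested, in either direction. The median log2 fold change of the 7 genes was -1.91, against 0.07 for all genes tested. It was -0.73 with no background correction. Clec10a, Clec4a3 and Clec4a2 were well above background on only 1 old array, so they entered the test through the young arrays. For the 4 receptors well above background on all 6 arrays the median was -1.45, and 2 of them fell in a fit of such genes only. By the processed signal Clec4d and Clec4e were 3.78 and 3.75 times lower, and the size of the fall of Clec10a varied with the background method. For 5 of the 7, every old sample was below every young sample, against 13.1% of all genes. Among the young arrays, replicate 3 read highest for all 7 tested receptors and for 11 of the 12 leukocyte markers.

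**Figure D1:**
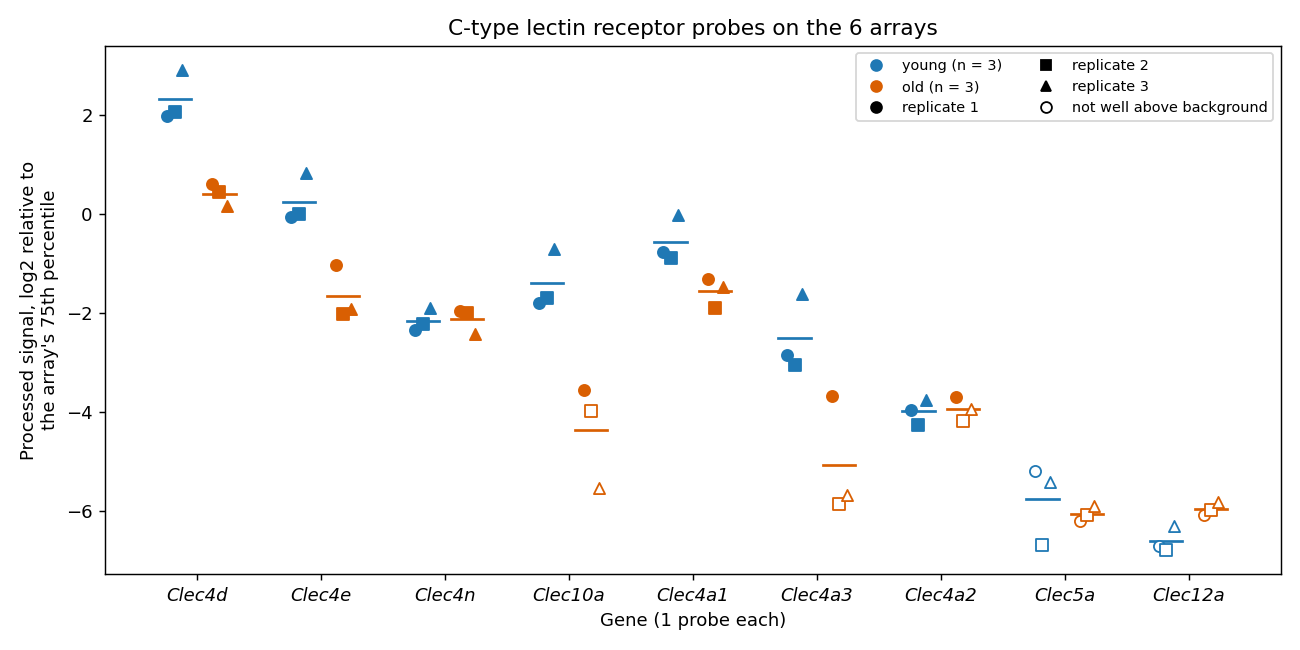
Processed signal of the 9 receptor probes on each array, as log2 relative to the array's 75th percentile (vertical axis), with young samples in blue and old samples in orange, symbols for replicates and a bar at each group's mean. Open symbols are spots that were not well above background. Old samples lie below all young samples for Clec4d, Clec4e, Clec10a, Clec4a1 and Clec4a3, and overlap them for Clec4n and Clec4a2.

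Clec4d (NM_010819) encodes a receptor for mycobacterial glycolipids that pairs with the product of Clec4e. Signals are given as log2 relative to the 75th percentile of the same array, in the order of replicates 1 to 3. Clec4d read 1.99, 2.07 and 2.91 on young arrays and 0.61, 0.44 and 0.16 on old arrays. The groups did not overlap, and young replicate 3 was the highest. The log2 fold change was -1.92 ± 0.27 (SE, n = 3 and 3), a 3.78-fold lower level, with a limma adjusted p of 0.0249 over all genes. The spot was 10.2 to 74.5 times as bright as its local background. Its log2 fold change was -1.88 with no background correction and -1.83 with normexp, a model-based correction (limma adjusted p = 0.00720 and 0.00253).

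Clec4e (NM_019948) encodes Mincle, which senses the same class of glycolipids and a nuclear protein released by dead cells. It read -0.06, -0.01 and 0.82 on young arrays and -1.03, -2.02 and -1.92 on old arrays. The groups did not overlap, and old replicate 1 was nearer to the young arrays than were the other old arrays. The log2 fold change was -1.91 ± 0.35 (limma adjusted p = 0.0335), a 3.75-fold lower level, with a signal well above background in all 6 samples. Without background correction it was -1.54 ± 0.26 (limma adjusted p = 0.0121).

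Clec4n (NM_020001), the neighbour of Clec4d, encodes Dectin-2, a receptor for fungal mannans that uses the same adaptor. It read -2.34, -2.23 and -1.90 on young arrays and -1.95, -2.01 and -2.42 on old arrays, so the groups overlapped. The log2 fold change was 0.03 ± 0.17 (limma adjusted p = 0.928), with a 95% confidence interval from -0.39 to 0.45. The sign was negative under cyclic loess (-0.03), quantile normalization (-0.01) and the deposited values (-0.06), so no direction can be given. The probe was 2.85 to 4.0 times brighter than local background and passed that background on all 6 arrays.

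Clec10a (NM_010796) encodes a galactose-type lectin. It read -1.80, -1.70 and -0.71 on young arrays and -3.56, -3.98 and -5.54 on old arrays. The groups did not overlap, and the old arrays spread more widely than the young ones. The log2 fold change was -2.96 ± 0.56 (limma adjusted p = 0.0359) in the processed signal. Of the old arrays 1 of 3 had the probe well above background. Over the 3 old arrays the spot was 1.36 to 2.05 times as bright as local background, against 4.27 to 7.14 times on young arrays. With other background methods the fall was smaller. It was -1.26 ± 0.23 (limma adjusted p = 0.0158) with none subtracted and -0.91 ± 0.19 (limma adjusted p = 0.0178) with normexp, and it passed in each.

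Mgl2 (NM_145137), the close relative beside Clec10a, read 8.26, 8.26 and 7.87 on young arrays and 8.48, 8.59 and 8.68 on old arrays. All old samples were above the young ones, but the difference of 0.46 ± 0.13 did not pass (limma adjusted p = 0.0932). The probe was very bright. For scale, the globin gene Hba-a1 had means of 8.59 in young and 8.51 in old samples with no background correction. Whether this signal came from Mgl2 transcripts was not tested. Probe sequences were not used here, so whether a probe of Clec10a, Mgl2 or the Clec4a genes also binds transcripts of its relatives was not tested.

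The Clec4a genes encode relatives of the dendritic cell immunoreceptor DCIR. Clec4a1 (NM_199311) read -0.77, -0.89 and -0.02 on young arrays and -1.31, -1.90 and -1.47 on old arrays. The groups did not overlap, but the difference of -1.0 ± 0.27 did not pass in the processed signal (limma adjusted p = 0.0767). With no background correction it was -0.73 ± 0.19 and passed (limma adjusted p = 0.0454), as it did with normexp at -0.59 ± 0.17 (limma adjusted p = 0.0494). Clec4a1 was well above background on all 6 arrays, at 3.44 to 10.8 times local background.

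Clec4a3 (NM_153197) read -2.85, -3.05 and -1.61 on young arrays and -3.67, -5.85 and -5.68 on old arrays. Its groups did not overlap either, and 1 of 3 old arrays had it well above background. The difference was -2.57 ± 0.67 in the processed signal (limma adjusted p = 0.0724), -0.58 ± 0.23 with no background correction (limma adjusted p = 0.128) and -0.31 ± 0.17 with normexp (limma adjusted p = 0.230). The median spot signal was 76.5, 68 and 110 on young arrays and 54.5, 40 and 36 on old arrays, over a local background of 24 to 26. Processing turned these into 46.5, 42.1 and 91.0 on young and 22.4, 3.89 and 4.01 on old arrays. The spot signals of the groups thus lay closer together than the processed signals.

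Clec4a2 (NM_001170333), which encodes DCIR itself, an inhibitory receptor, was dim in both groups. It read -3.95, -4.26 and -3.75 on young arrays and -3.69, -4.19 and -3.95 on old arrays, and the groups overlapped. The difference was 0.05 ± 0.18 (limma adjusted p = 0.891), with a 95% confidence interval from -0.39 to 0.48. The 3 young arrays and 1 of 3 old arrays had it well above background. With no background correction the difference was 0.31 ± 0.10 (limma adjusted p = 0.0857), and every old sample was then above every young one. It was 0.04 when these uncorrected values were quantile normalized. Under cyclic loess of the processed signal it was negative (-0.05), so no direction can be given.

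**Figure D2:**
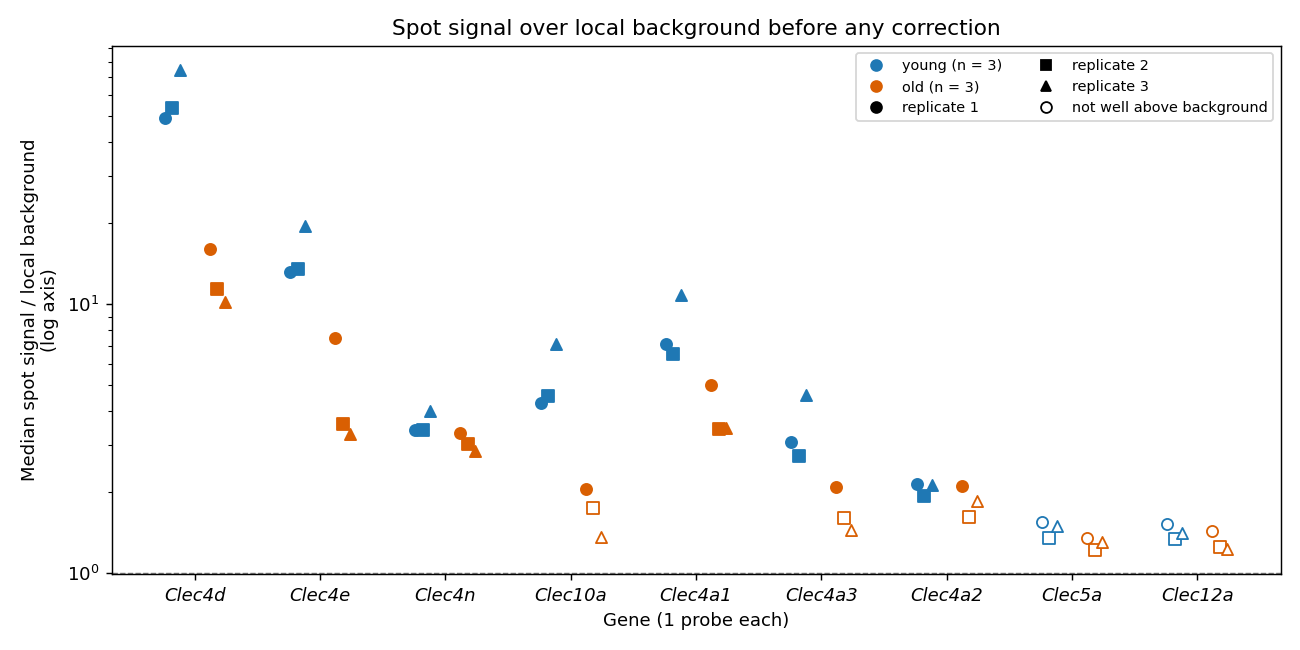
Median spot signal divided by local background for the 9 receptor probes on each array (vertical axis, log scale), before any correction, with young samples in blue, old samples in orange and open symbols for spots not well above background. Clec4d lies between 10.2 and 74.5, whereas Clec5a and Clec12a stay between 1.21 and 1.55 in both groups.

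Clec5a and Clec12a were below this limit on every array, and neither was tested. Clec5a (NM_001038604), the receptor coupled to DAP12, had median spot signals of 45, 39 and 42 on young and 39, 34 and 34 on old arrays, at 1.21 to 1.55 times local background. Clec12a (NM_177686), an inhibitory receptor of myeloid cells, had 36.5, 32 and 31 on young and 34.5, 30 and 27 on old arrays, at 1.23 to 1.52 times local background. The spot signals of the groups overlapped for both genes. These spot signals are not scaled between arrays, and old arrays were dimmer. Processed signals of Clec12a were 3.14 to 3.50 on young and 3.53 to 4.24 on old arrays and did not overlap. Scaled to its array with no background correction, Clec12a read -3.33, -3.57 and -3.32 on young arrays. It read -3.22, -3.10 and -3.15 on old arrays, so old samples were above young ones here too. The probe was below the background limit on every array, so no direction is given. A difference between the ages was not detectable at this signal for either gene.

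Background handling was compared for all 7 tested genes. With no background subtracted 4 of the 7 fell (Clec4d, Clec4e, Clec10a and Clec4a1), against 4.48% of all genes, and with normexp the same 4 fell, against 4.75%. The median log2 fold change of the 7 genes was -0.73 with no subtraction and -0.59 with normexp. A fit over every probe gave 3 receptors that fell, against 3.77% of all probes. Each receptor has a single probe, so this fit reused the same values and fold changes and is not separate evidence. The deposited values gave the same 3 calls as the processed signal, against 4.34% of all genes, with log2 fold changes of -1.93 for Clec4d, -1.91 for Clec4e and -2.76 for Clec10a.

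**Figure D3:**
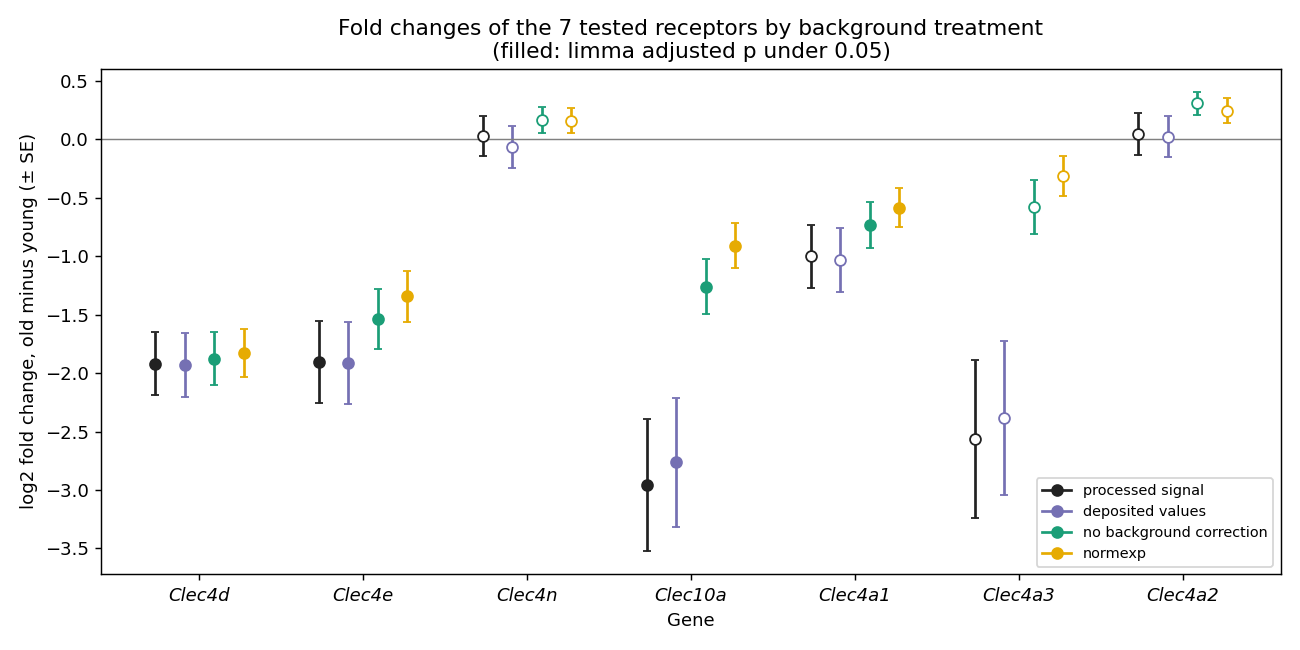
Log2 fold change of the 7 tested receptors, old minus young (vertical axis), with the SE of the limma fit as bars, for 4 kinds of values: the processed signal, the deposited values, the median signal with no background correction, and normexp. Filled points passed an adjusted p of 0.05. Clec4d stays between -1.93 and -1.83, while Clec10a moves from -2.96 to -0.91 and Clec4a3 from -2.57 to -0.31.

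The calls did not hold in every fit with 1 array left out, and such fits also held fewer samples. With each array left out in turn, Clec4d passed in 3 of 6 fits, Clec4e and Clec10a in 1 of 6 each. Clec4d did not pass without young replicate 2 (limma adjusted p = 0.0671), old replicate 2 (0.0710) or old replicate 3 (0.0787). Clec4e and Clec10a passed only without old replicate 1 (limma adjusted p = 0.0385 and 0.0458), as did Clec4a3 (0.0398). Without young replicates 1, 2 and 3 and old replicates 2 and 3, in that order, the limma adjusted p was 0.0597, 0.0880, 0.0737, 0.0979 and 0.104 for Clec4e. It was 0.0666, 0.0977, 0.0921, 0.0902 and 0.0745 for Clec10a. The direction held in all 6 fits, at -2.08 to -1.62 for Clec4d, -2.22 to -1.62 for Clec4e and -3.36 to -2.37 for Clec10a. Without young replicates 1, 2 and 3 the share of all genes that fell was 1.95%, 0.215% and 1.04%, and without old replicates 1, 2 and 3 it was 2.56%, 0.0043% and 0.0215%. With no background correction Clec4d passed in 6 of 6 such fits and Clec4e in 5 of 6 (0.0575 without old replicate 3). Clec10a passed in 4 of 6 (0.0522 and 0.0705 without old replicates 2 and 3) and Clec4a1 in 1 of 6 (0.0452 without young replicate 3).

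Some markers of the cells that carry these receptors also fell. Of 12 leukocyte markers 8 fell, with a median log2 fold change of -1.26, and their summed level was 6.61 to 7.38 in young and 5.84 to 6.01 in old samples (log2 relative to the 75th percentile). Of 12 tested monocyte and macrophage markers 6 fell, with summed levels of 5.52 to 5.91 and 4.91 to 5.22, and their median was -1.84 in the processed signal, -1.10 with no background correction and -0.87 with normexp. Of 14 neutrophil markers 4 fell, but 10 with no background correction and 12 with normexp, with a median of -1.14 in the processed signal and summed levels of 10.98 to 11.57 and 10.40 to 10.72. Of 12 tested dendritic cell markers 4 fell, with summed levels that overlapped (8.40 to 8.62 and 8.35 to 8.55) and a median of -0.77, or -0.52 with no background correction and -0.40 with normexp. Cd163 and Xcr1 were below the background limit on every array. The part of these markers in the receptor results was not tested, and in bulk RNA fewer cells of a type and less RNA per cell cannot be told apart.

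Single markers differed in size. Ptprc, the common leukocyte antigen, had a log2 fold change of -1.28 ± 0.24 (limma adjusted p = 0.0359). Ccr2, the chemokine receptor of inflammatory monocytes, was -2.51 ± 0.37 (limma adjusted p = 0.0260), with 2 of 3 old arrays well above background, and -1.20 with normexp. Flt3, a receptor of dendritic cell precursors, was -1.75 ± 0.17 (limma adjusted p = 0.0178), and -0.69 with normexp. The other 3 markers did not pass. Csf1r, the receptor of the macrophage growth factor, was -0.41 ± 0.21 (limma adjusted p = 0.272), and the neutrophil genes Csf3r and S100a8 were 0.05 ± 0.09 (0.741) and -0.91 ± 0.24 (0.0692). S100a8 passed with no background correction (-1.0, limma adjusted p = 0.0243).

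Adaptors and kinases of the receptors fell in part. Of 13 tested, 7 fell and 6 did not pass, with a median log2 fold change of -1.42. Fcer1g, the adaptor of Clec4d, Clec4e and Clec4n, read 3.38, 3.56 and 4.36 on young arrays and 2.36, 1.96 and 1.77 on old arrays, a change of -1.73 ± 0.29 (limma adjusted p = 0.0293). Tyrobp was -1.84 ± 0.34 (limma adjusted p = 0.0336), Syk -1.67 ± 0.25 (0.0265) and Plcg2, the phospholipase downstream of Syk, -1.42 ± 0.21 (0.0259). In these 4 genes every old sample was below every young one, and each passed with no background correction and with normexp. The kinase genes Fgr and Prkcd were also among those that fell. With no background correction 9 of the 13 fell and 1 rose, which was Plcg1 at 0.45 ± 0.08 (limma adjusted p = 0.0170), against 0.54 ± 0.16 (0.0981) in the processed signal.

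Fewer genes further along the pathway passed. Of 12 tested genes of the Card9 and NF-kB branch 1 fell, with a median of -0.13. It was Malt1, the paracaspase, at -0.48 ± 0.09 (limma adjusted p = 0.0351). Relb was -0.66 ± 0.21 (limma adjusted p = 0.107), Bcl10 -0.69 ± 0.26 (0.151) and Ikbkb -0.19 ± 0.10 (0.283). Card9 itself was dim and did not pass, at -0.22 ± 0.24 (limma adjusted p = 0.598) in the processed signal but 0.24 with no background correction and 0.26 with normexp, so no direction can be given. Of 6 inhibitory phosphatases and ubiquitin ligases 0 passed in limma, 1 at an unadjusted p under 0.05 (Cbl), with a median of -0.09. Cbl was -0.24 ± 0.09, Ptpn11 -0.16 ± 0.09, Ptpn6 -0.12 ± 0.09 and Inpp5d -0.06 ± 0.08 (limma adjusted p = 0.153, 0.287, 0.440 and 0.677).

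Inflammatory genes downstream of these receptors were measured in part, since Il6, Il10, Il23a, Cxcl1 and Csf2 stayed below the background limit on every array. Of 7 tested 2 fell, with a median of -1.59 in the processed signal, -0.81 with no background correction and -0.55 with normexp. The chemokine gene Ccl3 was -2.10 ± 0.39 (limma adjusted p = 0.0347). Tnf was -1.46 ± 0.24 (limma adjusted p = 0.0285), with 2 of 3 old arrays well above background, was -0.56 with no background correction (0.0296), and did not pass with normexp (-0.35, limma adjusted p = 0.0711). Il1b was -1.92 ± 0.46 (limma adjusted p = 0.0586) in the processed signal and -1.53 (limma adjusted p = 0.0325) with no background correction. Ptgs2 was not well above background on any old array and did not pass (limma adjusted p = 0.0558). Its log2 fold change was -0.64 with no background correction and -0.35 with normexp.

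Other C-type lectin receptors were mixed. Of 29 on the array 17 were tested, of which 6 fell and 11 did not pass. Cd93, a receptor of myeloid and progenitor cells, was -1.92 ± 0.19 (limma adjusted p = 0.0182) and well above background on all 6 arrays. Clec9a, Mrc1 and Cd209a, receptors of dendritic cells and macrophages, were not well above background on any old array, and passed in the processed signal (limma adjusted p = 0.0175, 0.0219 and 0.0222), where no exact fold can be given. With no background correction they were -0.22, -0.34 and -0.78, of which Cd209a passed (limma adjusted p = 0.0194). With normexp these 3 calls ended, at log2 fold changes of -0.05, -0.15 and -0.45 (limma adjusted p = 0.799, 0.527 and 0.0547). Cd69 and Cd302 were the other two that fell. The list's median log2 fold change was -0.57, but 0.02 with no background correction and 0.07 with normexp, so its sign depends on the background.

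**Figure D4:**
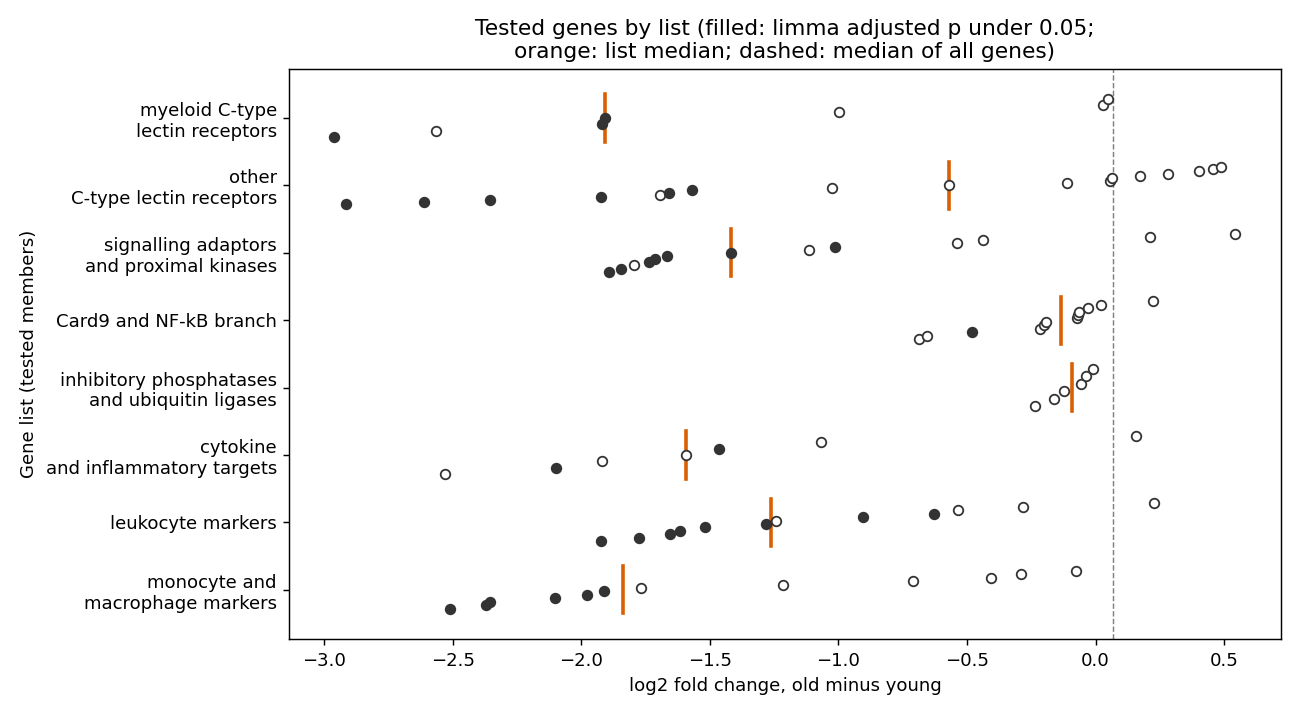
Log2 fold change, old minus young (horizontal axis), of each tested gene of 8 lists (rows), with filled points for an adjusted p under 0.05, an orange bar at each list's median and a dashed line at the median of all genes (0.07). In the processed signal shown, the receptor list has a median of -1.91 and the monocyte and macrophage markers -1.84, against -0.73 and -1.10 with no background correction, while the Card9 and NF-kB branch (-0.13) and the phosphatases (-0.09) lie near the median of all genes.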

How the data were processed

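The scanner files hold 1-colour intensity values per spot, which the authors extracted with Agilent Feature Extraction; its version is 10.7.3.1 per the file headers and 10.5.1.1 per the submitters' processing notes, and the probe design is on mm9. The deposited value table holds log2 values of the same arrays, which the authors normalized in a way not given in the sources used here; they correlated at 0.9986 to 0.9995 with log2 of the processed signal, and column medians were 4.87 to 4.95. Both rise with signal, and their centring stays unknown.

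Log2 of the processed signal minus each array's 75th percentile was fitted with limma 3.58.1 in R 4.3.3 (lmFit, eBayes, Benjamini-Hochberg adjustment over all genes). Control spots and outlier flags were left out, and a gene was its probe with the highest mean, tested if well above background on at least 3 of 6 arrays. Alternatives used the median signal with no background correction, normexp (offset 50, on the median signal, since the files hold no mean signal), other normalizations and filters, a replicate block and each array left out. Scripts were tested on simulated data. The number of arrays limits the precision.

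Members and lists were chosen with earlier results of these data known. Named genes were all members, the 4 genes with the smallest p of each related list, and 8 fixed genes; Fgr, Prkcd, Plcg1, Card9, Cd69 and Cd302 were named after their values were seen. Motifs were searched with Python 3.11.15.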

Additional observations from a re-analysis of the deposited data

How the results depend on the processing

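Clec4d, Clec4e and Clec10a were lower in old samples under every alternative run, and the other receptors' values are given in the report. In limma without a filter on dim probes 0 of all genes and 0 receptors or related genes fell and 0 rose (939 and 925 of all genes in the reported fit). In that fit 11662 genes and 6 of 9 receptors had an unadjusted p under 0.05. One of these receptors, Clec12a, was higher in old samples, at 0.64 ± 0.16 (limma adjusted p = 0.0617), from a probe below the background limit on every array. With the replicate number as a block, limma gave 0 lower and 0 higher genes and 0 receptors, by gene or by probe, and 0 related genes, with 5553 genes and 5 receptors at an unadjusted p under 0.05. Without background correction the block kept 4 receptors. In a check of pairing, same-numbered samples correlated at -0.03, 0.02 and -0.01, and differently numbered ones at -0.11 to 0.11. With 3 arrays per age this cannot show whether the numbers pair the samples. With an intensity trend 1430 genes fell and 1850 rose, 5 receptors fell and 1 related gene rose. The number of all genes that rose was 1791 with no background correction, 1806 with normexp and 597 with the deposited values, and 1 related gene rose in the first 2 against 0. The share of calls that were higher was 49.6%, against 63.2% with no background correction, 62.0% with normexp, 59.9% for genes well above background on all 6 arrays and 39.0% with the deposited values. With each array left out in turn 1 to 595 genes fell and 0 to 558 rose, 0 to 4 receptors fell by gene or by probe, 1 to 4 with no background correction, and 0 to 14 of 16 related genes fell. The cause of these differences was not tested. The fits with an array left out also held fewer samples, and the effect of that number was not separated from that of the array removed. Signal over background limits Clec5a, Clec12a and the old values of Clec10a, Clec4a2 and Clec4a3.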

Other observations

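Markers of other marrow cells were counted in the same limma fit of the processed signal. Of 11 tested B cell markers 7 fell, and 10 with no background correction or with normexp, with a median log2 fold change of -2.35 and summed levels of 5.41 to 6.34 in young and 2.96 to 4.04 in old samples. Of 10 tested stromal and osteoblast markers 4 fell (Cxcl12, Col1a1, Sparc and Bglap2) and 2 rose (Lepr and Sp7). These 6 calls also passed with no background correction and with normexp, but the median moved from -2.11 to -0.84 and -0.59. Of 10 tested T cell and NK cell markers 2 fell (Klrb1c and Gzma) and 2 rose (Cd3e and Cd8a), and 6 of the 10 had a negative log2 fold change. The CD3 genes differed in direction. With no background correction Cd3e was 0.71, while Cd3d was -1.08 and Cd3g -0.53, and the latter did not pass (limma adjusted p = 0.0513 and 0.288). Klrb1c did not pass with no background correction (limma adjusted p = 0.124) or normexp (0.247), and Cd8a not with normexp (0.0622). Of 9 tested mast cell, basophil and eosinophil markers 1 fell, which was Cpa3, against 2 with no background correction and 5 with normexp. Of 5 tested adipocyte markers 2 fell, Cebpa and Cfd. Cfd did not pass with no background correction (-0.10, limma adjusted p = 0.640) or normexp (0.04, 0.836), where its sign turned, and Cebpa not with normexp (-0.30, limma adjusted p = 0.115). Kdr rose among 4 tested endothelial markers, and also passed with both other background methods. The genes in this paragraph were named after their values were seen.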
